A study of Mus musculus with 12 samples.

Results

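Messenger RNA of unperturbed cultures of the stromal vascular fraction of mouse white adipose tissue was described in 2 baselines, wild-type cells (WT) and transgenic cells left untreated (CTL). The genes described were those listed in the deposited tables of both baselines, joined by gene identifier, with a mean signal of at least 1 in each set of 3 libraries. This rule kept 12230 genes of 19429 listed in either table and of 16618 listed in both. Signal is the deposited value, the reads of a gene scaled to a common library size, and the listed genes of a library summed to between 942872 and 1022758. Per-library signals of the genes kept are quoted after a further rescaling, described below, by factors of 0.990 to 1.006.

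The 6 libraries used here belong to a series of 12 in 4 groups, built to find targets of the microRNA miR-26 in fat cell progenitors. All mice were C57BL/6 and 6 weeks old, and all cells were primary cultures grown to confluency before RNA was taken. WT cells carried no engineered allele per the labels. CTL cells carried M2rtTA, a transactivator that works only in the presence of doxycycline, and eGFP.miR-26a, the transgene it switches on, and were grown without doxycycline. The labels do not give the promoter that drives M2rtTA, the fat depot, or whether the 3 libraries of a set came from separate animals or cultures, so p-values measure only the spread between these libraries, which may be technical. Genotype, table, depth and any difference of culture or sequencing run move together between WT and CTL and cannot be told apart.

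The stromal vascular fraction is what is left of fat tissue once the floating fat cells are removed. In culture it is rich in fibroblast-like stromal cells marked by the receptors Pdgfra and Pdgfrb, among them the preadipocytes that turn into fat cells when induced, and it can hold leukocytes, endothelial, mesothelial and other cells. Fat cell formation runs from the early factors Cebpb and Cebpd to Pparg and Cebpa, which switch on lipid genes such as Plin1, Adipoq and Fabp4.

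CTL cells hold an uninduced extra copy of miR-26a, so the sequences of the family and of 3 matching sites are shown first. A microRNA pairs with messages through its seed, bases 2 to 8, given in capitals in the mature mouse sequences (RefSeq, 5′ to 3′). Both share the same seed.
mmu-miR-26a-5p: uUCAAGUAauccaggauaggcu
mmu-miR-26b-5p: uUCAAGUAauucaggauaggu
The full match, or 8mer, is TACTTGAA on the strand of the message, that is the reverse complement of the seed followed by A. The 30-base windows below come from 3′ UTRs of GENCODE vM21 transcripts (GRCm38) and have the 8mer in capitals. They are shown for Fbxl19, the target in the title of the series, and for 2 other reported targets with an 8mer and a small p between the baselines. Fbxl19 held 2 such sites, of which the first is shown, and each of the other 2 genes held 1.
Fbxl19, chr7:127768699-127768728, plus strand: tctctacacaaTACTTGAAcattcatctgt
Tab3, chrX:85630758-85630787, plus strand: gtagaaggggaTACTTGAAttcactcctgt
Rb1, chr14:73196413-73196442, minus strand: tacccatgtagTACTTGAAagtcaagtttg

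WT libraries were deeper, with 54978109 to 61307152 recovered reads against 20182665 to 24122542 in CTL, so counting error is larger in CTL. Genes kept here held 99.8% of the recovered reads of the genes listed for each library, and 95.2% of the genes kept are protein coding. The order of levels was close in all 6 libraries: Spearman's rho across genes was at least 0.992 within WT, at least 0.977 within CTL, and 0.961 to 0.971 between a WT and a CTL library. The CTL libraries differed more among themselves, with a biological coefficient of variation of 19.4% against 10.8% in WT. An SD of log2 signal of 1 or more was reached by 140 genes in CTL and by 11 in WT.

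The most abundant messages were those of the mitochondrial genome, of extracellular matrix, of the cytoskeleton and of translation. Level here means signal per kilobase of merged exons, scaled to the same total in each library over the genes kept, which cancels the separate normalization of the tables. Mt-Cytb, a subunit of respiratory complex III, led in WT at 35579 ± 2804 (SD, n = 3), and mt-Co1, a subunit of cytochrome oxidase, led in CTL at 14297 ± 1024. Outside the mitochondrial genome the highest mean over the 6 libraries was that of Eef1a1, the elongation factor that brings transfer RNA to the ribosome, at 7060 ± 311 in WT and 9263 ± 286 in CTL. At least 0.50 of the transcript sequence of mt-Co1, mt-Nd4, Eef1a1 and Rplp1 recurs in transcripts of other genes, so their counts are uncertain.

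Next came Col1a1, the main chain of type I collagen, at 5903 ± 426 in WT and 9812 ± 1177 in CTL. Sparc, a collagen-binding matrix protein, stood at 6164 ± 427 and 9260 ± 491, and Lgals1, a secreted lectin, at 6522 ± 331 and 8288 ± 655. Acta2, the smooth muscle actin of myofibroblasts, stood at 5800 ± 316 and 5637 ± 1272, so the sets overlapped. Thbs1, an adhesive matrix protein, was at 5770 ± 685 and 5251 ± 2266, and Fn1, fibronectin, at 5670 ± 260 and 4396 ± 493. Of the 100 highest genes in WT and the 100 highest in CTL, 78 were shared. The 100 genes with the highest mean took 34.7% ± 0.792 (SD, n = 3) of the summed level in WT and 29.1% ± 0.561 in CTL.

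**Figure D1:**
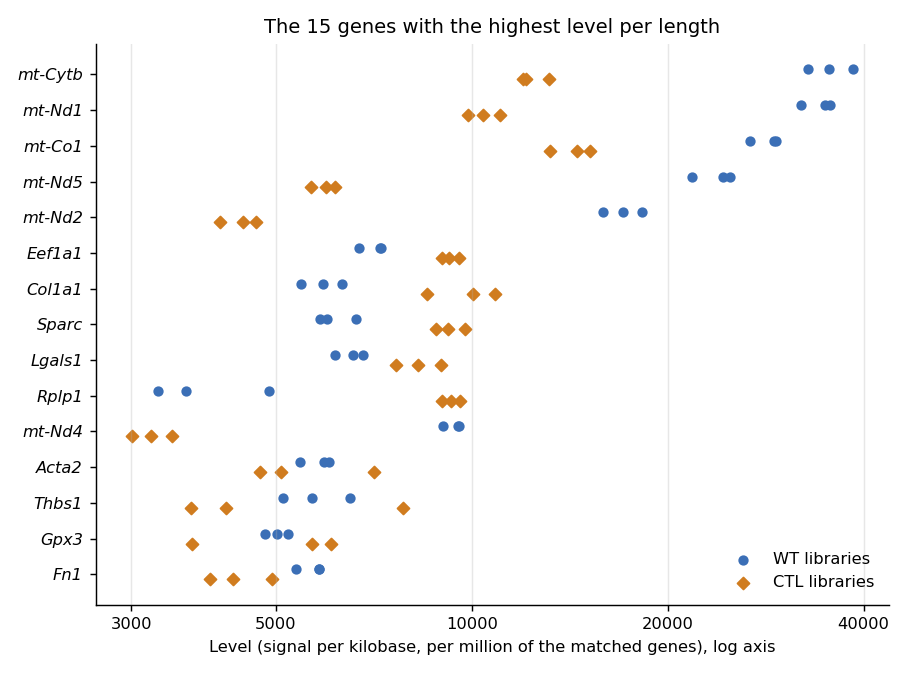
Level per length of the 15 genes with the highest mean over the 6 libraries, on a log axis, with 1 point per library (WT circles, CTL diamonds). The 6 mitochondrial genes shown are higher in every WT library than in any CTL library, while Col1a1, Sparc and Eef1a1 are higher in every CTL library and Acta2, Thbs1 and Gpx3 overlap.

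Between the baselines, 5560 of the 12230 genes passed an adjusted p of 0.05, which is 45.5% of those tested. The test was limma on log2 of signal plus 1, after each library was rescaled by its median ratio to the mean of all 6, and a difference is CTL minus WT in log2 units on that scale, which understates the change of low genes. In CTL 2807 genes were higher (23.0%) and 2753 were lower (22.5%). Leaving out WT replicate 2 moved the lower count to 1799. Most differences were small: 81.4% of all genes lay within 1.5-fold, and so did 63.1% of those called. In 7143 genes, 58.4% of all, the 3 WT and the 3 CTL values did not overlap, so a lack of overlap in a named gene is the common case here. Differences of 1 log2 unit or more were called for 244 genes higher and 97 lower in CTL. In all, 3557 of the calls, 64.0%, were kept in each of 6 fits that left out 1 library.

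Differences followed the base composition of the transcript. Over 12217 genes with a transcript in the annotation, Spearman's rho of the difference was 0.57 with GC content and -0.33 with transcript length, as a description across genes that share the same 6 libraries. In the decile of genes with the lowest GC the median difference was -0.40, with 61.1% called lower and 2.29% called higher in CTL. In the decile with the highest GC the median was 0.41, with 52.5% called higher and 3.03% lower. By length, the medians ran from 0.32 in the shortest decile to -0.24 in the longest. Length and GC together held 34.3% of the variance of the differences. Within sets the libraries also leaned: across genes, the deviation of WT replicate 1 from the WT mean had a rho of -0.50 with GC, and that of WT replicate 3 had 0.38.

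**Figure D2:**
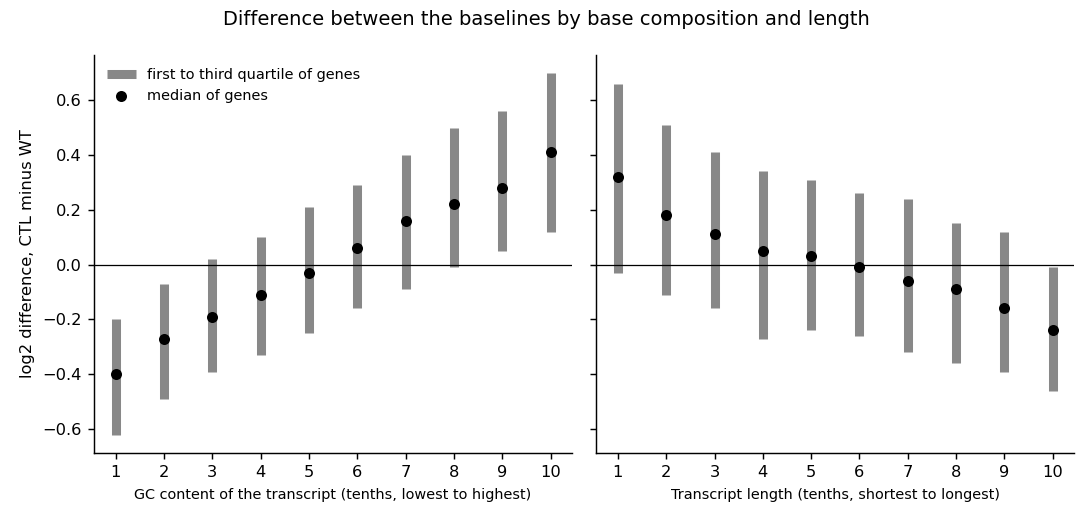
Difference between the baselines (log2, CTL minus WT) in deciles of genes by GC content, left, and by transcript length, right. Points are medians over genes and bars run from the first to the third quartile. The median climbs from -0.40 to 0.41 with GC and falls from 0.32 to -0.24 with length.

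Results are therefore also given with that trend removed, by taking a smooth curve on length and GC out of each library and refitting limma. Then 2053 genes (16.8%) were higher and 2083 (17.1%) lower in CTL. Of the calls without this step 2997, or 53.9%, were also called in the same direction with it, and 20 were called in the opposite direction. Both steps together, the trend and each library left out, kept 2401 calls. What makes the libraries lean with GC was not tested.

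**Figure D3:**
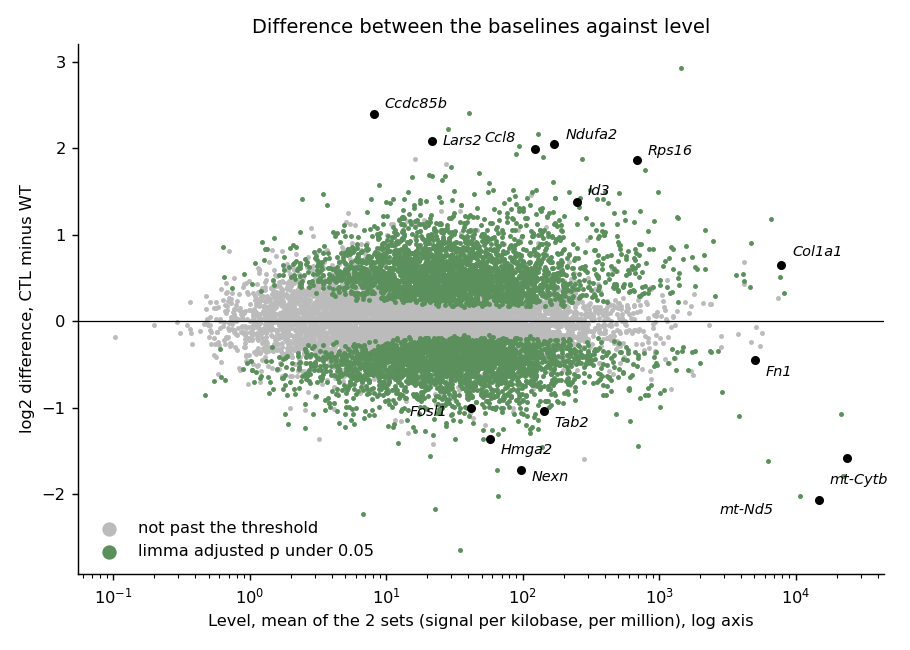
Log2 difference, CTL minus WT, against the level of each gene (mean of both sets, log axis). Green points passed the limma test, grey points did not, and labelled genes are discussed in the text. Called genes fill both directions, and the most abundant mitochondrial messages stand alone at the lower right.

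Among nuclear genes, those with the largest increases in CTL included genes of the endoplasmic reticulum, mitochondria and ribosome. Each gene of this paragraph kept its call without any 1 library and with the trend removed. The sets did not overlap in any of them, but the choice of these genes required that. Signals of Ccdc85b, a coiled-coil protein, were 0.793, 2.48 and 4.00 in WT and 12.4, 16.6 and 18.4 in CTL, a difference of 2.40 ± 0.36 (SE; adjusted p = 0.0026; 2.26 with the trend removed). Ndufa2, a subunit of respiratory complex I, had 8.41, 7.78 and 9.35 in WT and 33.7, 36.7 and 45.1 in CTL, a difference of 2.05 ± 0.12 (adjusted p = 3.2e-04; 1.68). Tspo, a cholesterol-binding protein of the outer mitochondrial membrane, had 7.33, 7.93 and 11.2 in WT and 36.3, 33.6 and 46.8 in CTL, a difference of 2.03 ± 0.18 (adjusted p = 5.8e-04; 1.48). In all 3 genes the lowest CTL library was above 2 times the highest WT library.

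Ccl8, a chemokine that draws monocytes, stood at 4.65, 3.61 and 8.01 in WT and at 35.5, 16.9 and 21.5 in CTL, a difference of 1.99 ± 0.33 (adjusted p = 0.0034; 1.77 with the trend removed). Summed macrophage marker levels, given below, were also highest in CTL replicate 1, and their part in this result was not tested. Others with differences of 1.79 to 2.23 were Scand1, Sec61b, the translocon subunit of the endoplasmic reticulum, Lars2, Rabac1, Atp5k, Rpl39, Rps16 and Gstp1. Sec61b, Rps16, Rpl39 and Gstp1 share stretches of sequence with other genes, from 0.16 of the transcript in Rpl39 to 0.62 in Gstp1. Lars2, the mitochondrial leucyl-transfer RNA synthetase, rose by 2.08 ± 0.19, from 20.6, 19.1 and 24.2 to 77.5, 80.7 and 127. In the same direction went Gm42418 and Gm26917, unnamed loci picked after their values were seen. Gm42418 stood at 120, 122 and 196 in WT and at 777, 1055 and 1566 in CTL, a difference of 2.93 ± 0.29 (adjusted p = 7.3e-04). Sequence sharing was checked only against annotated transcripts, so whether reads of other origin add to the counts of Lars2 and these loci was not tested.

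Large decreases in CTL included those of the mitochondrial genome, described below, and of single nuclear genes, several of them AT-rich. An unnamed nuclear locus, left out of this choice, fell further than any mitochondrial gene. Nexn, an actin-binding protein of muscle and stromal cells with a transcript GC of 39.6%, fell from 130, 148 and 149 in WT to 43.0, 35.5 and 50.1 in CTL, by 1.72 ± 0.13 on the log2 scale (adjusted p = 4.9e-04; -1.38 with the trend removed). Upf3b, a factor of nonsense-mediated decay, fell from 46.5, 47.2 and 45.4 to 16.7, 17.3 and 18.1, by 1.37 ± 0.06 (adjusted p = 3.2e-04; -1.15). Ccdc34 and Nsrp1, a splicing regulator, fell by 1.56 ± 0.10 and 1.36 ± 0.10. In these 4 genes the sets were well apart, every WT library above 2 times every CTL library. Hmga2, a chromatin protein of growing mesenchymal cells and a reported miR-26 target, stood at 150, 136 and 121 in WT and at 31.9, 48.3 and 89.7 in CTL, a difference of -1.37 ± 0.34 (adjusted p = 0.015). That call was lost without WT replicate 1 (adjusted p = 0.059) or WT replicate 2 (0.053). Srp54b had a difference of -1.72, but 0.94 of its transcript recurs in other genes, so its count is uncertain.

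Of the 10 genes encoded by the mitochondrial genome that passed the rule, 9 were lower in CTL and 8 remained lower with the trend removed, where 22.5% and 17.1% of all genes were lower. Their median difference was -1.52, and -1.19 with the trend removed, against 0.00 for all genes. They made up 14.9% ± 0.913 of the summed level in WT and 5.12% ± 0.209 in CTL (SD, n = 3). Mt-Nd5, a complex I subunit, had signals of 11239, 11517 and 9832 in WT and of 2612, 2378 and 2757 in CTL, a difference of -2.07 ± 0.12 (adjusted p = 3.2e-04; -1.69 with the trend removed). Mt-Nd2 and mt-Nd1, also of complex I, differed by -2.03 ± 0.11 and -1.79 ± 0.12, and mt-Co1 less, by -1.07 ± 0.12. Every WT library was above every CTL library in all 4, where the sets did not overlap in 58.4% of all genes.

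By percentile rank within a library, mt-Nd1, mt-Nd5, mt-Cytb and mt-Co1 no longer passed (adjusted p = 0.32, 0.32, 0.53 and 0.69), since they sit at the top of both sets: mt-Nd1 was the gene of rank 2 in WT and of rank 3 in CTL. Mt-Nd2 went from rank 5 to rank 21. Mt-Co2, mt-Co3 and mt-Atp6 had signals under 13 in all 6 libraries, and at least 0.99 of each transcript recurs in transcripts of other genes, so their counts say little. Mt-Nd3, mt-Nd4l and mt-Atp8 were listed in both tables under a mean of 1.

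Nuclear genes of the cytosolic ribosome and of the respiratory chain, groups picked only once their values were known, had most calls in the other direction. Among 79 genes for ribosomal proteins 66 were higher and 4 lower in CTL, against 23.0% and 22.5% of all genes. After the trend was removed 54 were higher and 7 lower, against 16.8% and 17.1%, and the median difference was 0.76 (0.58 with the trend removed). Rps16, of the small subunit, stood at 77.6, 90.4 and 102 in WT and 358, 311 and 318 in CTL, a difference of 1.86 ± 0.11 (adjusted p = 3.2e-04). Rps6, Rpl23 and Rpl35 were among the 4 that were lower. Rps6, the ribosomal target of S6 kinase, had 543, 547 and 522 in WT and 344, 289 and 296 in CTL, a difference of -0.80 ± 0.08 (adjusted p = 8.2e-04). Ribosomal protein genes have many processed copies: in 29 of the 79, at least 0.50 of the transcript recurs elsewhere, and it is 0.84 in Rps6. They took 4.51% ± 0.274 of the summed level in WT and 7.62% ± 0.23 in CTL.

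Of 75 nuclear genes of the respiratory chain 53 were higher and 3 lower, against 23.0% and 22.5% of all genes. Once the trend was removed 44 were higher and 13 lower, the latter near the 17.1% of all genes and the former above 16.8%, and the median was 0.63 (0.33 with the trend removed). Only 1 of these 75 has at least 0.50 of its transcript in common with other genes. Atp5k, a small subunit of ATP synthase, stood at 8.30, 7.16 and 9.37 in WT and at 29.3, 34.2 and 37.5 in CTL, a difference of 1.90 ± 0.13 (adjusted p = 3.7e-04). The lower 3 were Uqcrb, Cox7a2l and Ndufb4, and Uqcrb, of complex III, had 103, 97.2 and 89.8 in WT and 58.2, 60.8 and 60.5 in CTL. The call of Ndufb4 was lost without WT replicate 1 (adjusted p = 0.056). In the nuclear genes of the chain the sets thus differed upward in CTL while the mitochondrial subunits differed downward.

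Fibroblast and progenitor markers were expressed in both sets, some of them at low levels. All 20 listed markers of adipose progenitors and fibroblasts passed the rule, none was higher in CTL, and 2 were lower, so 10% were called where 45.5% of all genes were. Their median difference was 0.01. Pdgfrb, the platelet-derived growth factor receptor of mural and stromal cells, had signals of 1250, 1225 and 1176 in WT and 1285, 987 and 1340 in CTL, and Pdgfra, its counterpart on preadipocytes, 777, 718 and 833 against 713, 1083 and 618. The sets overlapped for both receptors. Thy1, a stromal surface protein, reached 787, 785 and 701 in WT and 657, 453 and 709 in CTL, and the tissue factor gene F3 1370, 1302 and 1124 against 737, 653 and 1241. Neither difference passed (adjusted p = 0.14 and 0.083), but that of Thy1 did with the trend removed, at -0.68 (0.022).

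Progenitor genes at low levels were Dpp4 and Pi16, which mark an early interstitial progenitor, Nt5e and Zfp423. Dpp4 stood at 7.90, 9.26 and 6.51 in WT and at 39.1, 16.6 and 4.53 in CTL, so the CTL libraries spanned the WT values. Cd34, which falls when stromal cells are kept in culture, had a level per length of 11.8 in WT and 13.4 in CTL, far under the 397 and 509 of Ly6a, the Sca-1 antigen. The 2 genes that were lower in CTL were Itgb1 and Cd44, adhesion receptors, by -0.35 ± 0.10 and -0.59 ± 0.17 (adjusted p = 0.032 and 0.026). Neither passed with the trend removed (0.33 and 0.20). Both calls were also lost without WT replicate 1 (0.11 and 0.088), WT replicate 2 (0.10 and 0.093) or CTL replicate 2 (0.065 and 0.054), that of Itgb1 without WT replicate 3 (0.055) and that of Cd44 without CTL replicate 1 (0.052).

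Matrix genes were abundant in both sets. Of 14 collagens 5 were higher and 2 lower (23.0% and 22.5% over all genes), or 1 and 1 with the trend removed (16.8% and 17.1%), with a median of 0.38. Col1a1 had signals of 9083, 10523 and 9609 in WT and 17063, 15177 and 13752 in CTL, a difference of 0.65 ± 0.15 (adjusted p = 0.013). With the trend removed it was 0.41 (adjusted p = 0.097), and without WT replicate 1 the adjusted p was 0.075. Col8a1, a short-chain collagen of vessel walls, went down, from 358, 365 and 321 to 227, 175 and 223, by -0.75 ± 0.11 (adjusted p = 0.0026; -0.57 and 0.012 with the trend removed). It was the only 1 of the 7 collagen calls kept in every fit without 1 library. The summed level of the collagens was 19933 ± 585 in WT and 29877 ± 4152 in CTL (SD, n = 3).

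Of 21 other matrix genes 6 were higher, near the 23.0% of all genes, and none lower. With the trend removed 4 were higher, near 16.8%, and none lower, and the median was 0.03 before that step. Loxl1, which cross-links elastin, rose from 215, 262 and 316 in WT to 510, 491 and 562 in CTL, by 0.99 ± 0.14 (adjusted p = 0.002; 0.61 with the trend removed). Timp1, an inhibitor of matrix metalloproteinases, rose from 264, 258 and 208 to 416, 399 and 385, by 0.72 ± 0.10 (adjusted p = 0.002; 0.38). These were the 2 of the 6 kept without each library, and in both the sets did not overlap, as in 58.4% of all genes. Postn, Lox, Bgn and Fbn1 were among the abundant matrix genes whose sets overlapped or did not pass, with Postn at 7214, 6902 and 5983 in WT and 6537, 4015 and 6083 in CTL.

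Of 16 contractile and myofibroblast genes 3 were higher and 3 lower, near or under the shares of all genes (23.0% and 22.5%), or 1 and 3 with the trend removed (16.8% and 17.1%). Vim, the intermediate filament of mesenchymal cells, rose from 1653, 1613 and 1693 to 2508, 2610 and 2571, by 0.63 ± 0.08 (adjusted p = 0.0013; 0.40 with the trend removed), and was the only 1 of the 6 kept without each library. Cnn1, Myh11 and Lmod1, smooth muscle genes, had in common that CTL replicate 3 was the highest of its set: Lmod1 stood at 75.0, 93.7 and 84.2 in WT and at 31.8, 37.0 and 71.7 in CTL. Its difference of -0.92 (adjusted p = 0.035) was lost without any 1 library other than CTL replicate 3 (adjusted p up to 0.11). Acta2, Tagln and Thbs1 were also highest there within CTL. The CTL cultures were thus unequal in their contractile messages, and whether by the share of such cells or by RNA per cell cannot be told apart in bulk samples, here or elsewhere.

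Adipogenic factors were present, and fat cell genes were mostly low. Of 17 adipogenic transcription factors 6 were higher and 6 lower in CTL, so 70.6% were called where 45.5% of all genes were. After the trend was removed 3 were higher and 7 lower, against 16.8% and 17.1% of all genes. Cebpa, the late adipogenic factor, stood at 13.1, 10.8 and 11.8 in WT and at 21.6, 43.1 and 34.1 in CTL, a difference of 1.34 ± 0.23 (adjusted p = 0.0041; 0.88 and 0.034 with the trend removed). Cebpd, an early factor, stood at 10.8, 16.3 and 19.1 against 24.8, 33.5 and 27.7, a difference of 0.88 ± 0.21 (adjusted p = 0.013; 0.83). In both factors every CTL library was above every WT library, a lack of overlap seen in 58.4% of all genes.

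Cebpb differed by 0.92 ± 0.13 (adjusted p = 0.0023) but by 0.26 with the trend removed (0.10); its transcript GC is 67.2%. Srebf1, which drives lipid synthesis genes, rose by 0.72 ± 0.16 (adjusted p = 0.011; 0.46 with the trend removed). Pparg, the receptor that commits cells to the fat lineage, had 17.1, 13.9 and 14.7 in WT and 15.6, 20.1 and 16.6 in CTL, which did not pass (adjusted p = 0.27). Lower in CTL were Ebf1, a preadipocyte factor, at 206, 183 and 152 against 99.4, 96.5 and 102, by -0.84 ± 0.11 (adjusted p = 0.0015), and Nr2f2 and Tcf7l2, by -0.67 ± 0.11 and -0.65 ± 0.09. Gata3, which restrains fat cell formation, was lower too, at 5.25, 7.29 and 4.56 against 1.86, 2.57 and 2.91. These 4 kept their calls with the trend removed and without each library.

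Of 15 adipocyte lipid genes 3 were higher, about the 23.0% of all genes, and none lower. With the trend removed the counts were 4 and none, against 16.8% and 17.1% of all genes. Their summed share of level was 0.151% in WT and 0.152% in CTL. Fabp4, the fatty acid binding protein of fat cells, stood at 25.5, 25.8 and 25.5 in WT and at 35.9, 37.2 and 39.5 in CTL, a difference of 0.53 ± 0.06 (adjusted p = 0.0012; 0.68 with the trend removed). Dgat1 and Dgat2, which make triglyceride, rose by 0.82 ± 0.09 and 0.71 ± 0.13, and each of the 3 was kept without each library. The defining genes of mature fat cells were near the bottom. Adipoq, adiponectin, had 1.18, 1.84 and 2.79 in WT and 0.527, 0.234 and 6.58 in CTL. Plin1 and Cfd, adipsin, likewise were highest in CTL replicate 3, at 6.48 and 7.91, and below 3 in the other 5 libraries. Lpl and Scd1, which stromal cells also express, were high and did not pass, with Lpl at 1274, 1069 and 1527 against 1422, 1368 and 876.

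Other cell types of the tissue were detected at low levels and unevenly between libraries, and in each of their marker lists the share called was under the 45.5% of all genes. Of 12 macrophage and leukocyte markers tested 1 was higher in CTL, Csf1r, the receptor for macrophage growth factor, at 7.39, 6.23 and 8.85 against 15.3, 13 and 11.5 (difference 0.75 ± 0.15, adjusted p = 0.0065). Their summed level per length was 140, 110 and 196 in WT and 577, 256 and 110 in CTL, so CTL replicate 1 was the highest and CTL replicate 3 the lowest. Lyz2, lysozyme, followed that order with 24.1, 17.9 and 30.9 in WT and 110, 43.1 and 19 in CTL. Ptprc, the pan-leukocyte CD45, was at most 2.80 in any library.

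Mesothelial and epithelial markers, 10 tested and none called, summed to 106, 119 and 51.4 in WT and 473, 124 and 58.5 in CTL. The keratins Krt8, Krt18, Krt7 and Krt14 and the adhesion genes Epcam and Cdh1 were each highest in CTL replicate 1 and below their WT replicate 1 values in CTL replicate 3. Epcam stood at 5.06, 6.94 and 1.61 in WT and at 18.7, 5.56 and 0.333 in CTL. Krt17 was listed only in the CTL table, at 19.3, 2.99 and 0.33, in the same order. Msln and Upk3b, which mark mesothelium, stayed under 4 in all 6 libraries.

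Of 8 endothelial markers tested 1 was lower, Flt1, a receptor for vascular endothelial growth factor, at 44.9, 44.1 and 39.3 against 29.1, 20.4 and 27.6 (difference -0.73 ± 0.14, adjusted p = 0.0055). Pecam1 and Cdh5, which define endothelium, stood at 15.3 and 22.4 in CTL replicate 1 and at 1.00 and 5.10 in CTL replicate 3. The muscle genes Myog and Myh3, of newly formed muscle fibres, had the same order in CTL, with Myh3 at 135, 68.3 and 7.43 there and at 25.8, 54.4 and 14.3 in WT. Acta1, skeletal muscle actin, was the 1 gene of 7 muscle markers that passed (1.34 ± 0.35, adjusted p = 0.02); the call was lost without WT replicate 1 or 3 (0.058 and 0.057) and with the trend removed (0.10). No Schwann cell marker of 6 passed (1 was lower with the trend removed), and of 6 pericyte markers Notch3 did, with a difference of 0.74 ± 0.14 (adjusted p = 0.0064, and 0.052 with the trend removed).

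The genes with the widest spread inside a set were drawn from these same cell types in CTL and from other genes in WT. In CTL they were Ccl6 and Mmp12, a chemokine and an elastase of macrophages, Krt8, Krt18 and Myh3, all highest in replicate 1 and lowest in replicate 3. Ccl6 stood at 58.0, 6.83 and 1.00 in CTL and at 2.17, 1.67 and 1.48 in WT. Mmp12 stood at 113, 30.4 and 5.10 in CTL and at 7.93, 6.21 and 5.79 in WT. None of these 5 passed the test between the sets (adjusted p from 0.15 to 0.73).

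In WT the widest spread was that of Plppr4, S100g, Chodl, Rxfp2, the relaxin family receptor, and Pdlim3, a cytoskeletal protein, all lowest in replicate 1 and highest in replicate 3. Plppr4, a lipid phosphatase-related membrane protein, stood at 1.08, 8.32 and 17.1 in WT and at 0.324, 1.17 and 6.29 in CTL. Rxfp2 stood at 13.7, 42.1 and 73.1 in WT and at 16.7, 40.2 and 33.5 in CTL. These genes were picked for their spread, so a spread as large as the difference between sets follows in part from that choice.

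**Figure D4:**
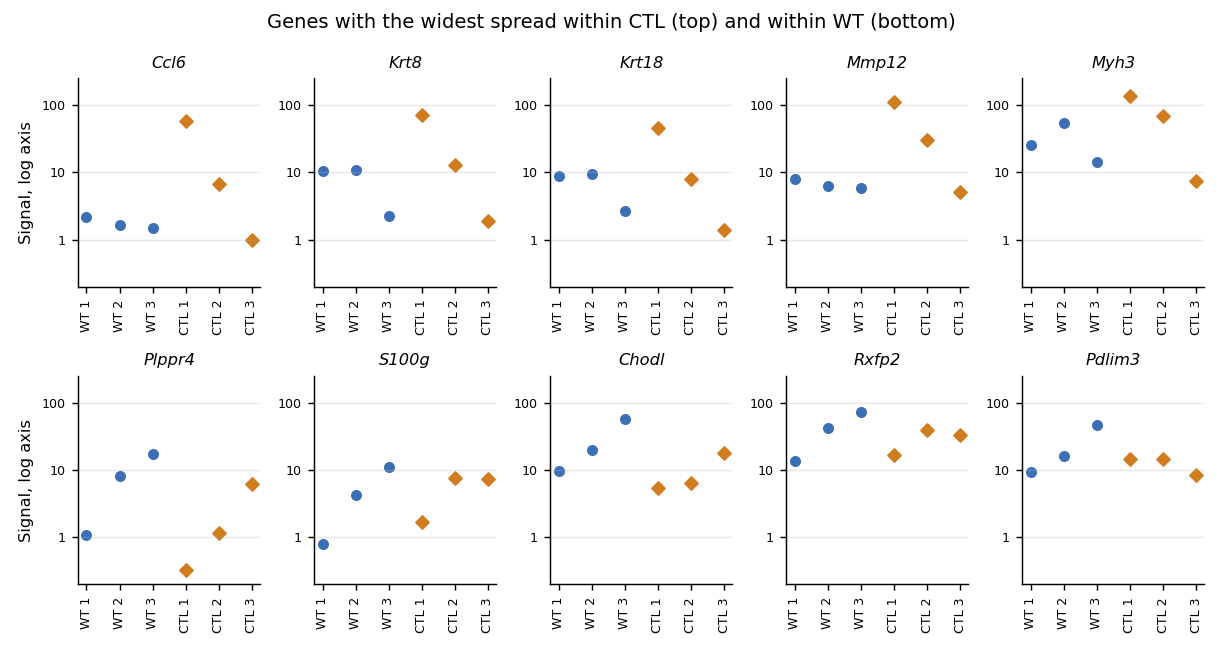
Signal in each library (log axis, the same in every panel) of the 5 genes with the widest spread within CTL, top, and within WT, bottom, with WT circles and CTL diamonds. The upper genes are highest in CTL 1 and lowest in CTL 3, such as Ccl6 at 58.0 and 1.00, and the lower genes are lowest in WT 1 and highest in WT 3.

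Position genes were shared by both baselines. Hox genes keep the body position of a mesenchymal cell in culture, from anterior genes of the neck and chest to posterior genes of the pelvis and limb. Of 10 anterior Hox genes tested 3 were lower and none higher, and of 19 central and posterior ones 5 were lower and none higher, near the 22.5% of all genes lower and below the 23.0% higher. With the trend removed the lower counts were 6 and 8, against 17.1% of all genes. Median differences were -0.28 in both lists and -0.55 and -0.51 with the trend removed, so here removing the trend moved the medians away from 0. Hoxa7 stood at 10.5, 11.3 and 10.5 in WT and at 7.54, 7.43 and 7.10 in CTL, a difference of -0.50 ± 0.08 (adjusted p = 0.0033; -0.66 with the trend removed). It was the only 1 of the 8 calls kept without each library. Hoxc4, for instance, was lost without WT replicate 2 (adjusted p = 0.063), and Hoxb5 without WT replicate 2 (0.079) or 3 (0.052).

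By level per length the leading Hox genes were Hoxc6, at 88.6 in WT and 72.4 in CTL, Hoxc10, at 65.3 and 64.1, Hoxc8, at 57.7 and 40.7, and Hoxb9, at 45.2 and 35.4. Hoxa10 and Hoxc10, trunk and hindlimb genes, did not pass, with Hoxc10 at 27.2, 27.9 and 38.7 against 26, 32.5 and 28.8. Hoxa13, Hoxc12 and Hoxd13, at the posterior end, were under a mean of 1 in at least 1 set. The same Hox genes thus led in both sets.

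Of 23 depot and limb patterning factors 1 was higher and 4 lower in CTL, both under the shares of all genes (23.0% and 22.5%), and none and 5 with the trend removed (16.8% and 17.1%). Tbx15, a factor of subcutaneous fat, was the highest by level per length at 126 and 111, with signals of 141, 119 and 96.8 against 94.7, 90.1 and 114 that did not pass. Shox2, a limb factor, stood at 105, 91.9 and 91.7 in WT and at 77.0, 55.1 and 63.1 in CTL, a difference of -0.57 ± 0.13 (adjusted p = 0.011; -0.58). Meis2, a Hox partner, stood at 85.9, 103 and 110 against 57.0, 70.7 and 54.9, a difference of -0.71 ± 0.13 (adjusted p = 0.005; -0.60). Both kept their calls without each library. Wt1, Gata4 and Bnc1, factors of visceral fat and mesothelium, were low, with Wt1 at 7.28, 13 and 11.8 against 9.89, 11.5 and 4.72.

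More interferon response genes were called higher than lower in CTL. Of 15 tested 6 were higher and 1 lower, where 23.0% and 22.5% of all genes were, and 5 and none with the trend removed, where 16.8% and 17.1% were, with a median of 0.48 (0.53), and 3 of the 6 were kept without each library. Psmb8, a subunit of the immunoproteasome, stood at 4.44, 3.45 and 3.84 in WT and at 10, 9.91 and 8.63 in CTL, a difference of 1.10 ± 0.11 (adjusted p = 8.1e-04; 0.75 with the trend removed). Bst2, tetherin, which holds budding virus at the membrane, stood at 11, 12.1 and 17.1 against 36.5, 28.5 and 59.8, a difference of 1.52 ± 0.28 (adjusted p = 0.0051; 1.08). Ifi27 stood at 33.1, 29.0 and 31.4 against 67.1, 58.0 and 103, a difference of 1.22 ± 0.20 (adjusted p = 0.0033; 0.91). In Bst2 and Ifi27 CTL replicate 3 was the highest library.

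Not all of the list followed. Ifit2, which binds viral RNA, was lower, by -0.39 ± 0.08 (adjusted p = 0.0077), and by -0.08 with the trend removed (0.46). Ddx58, a sensor of viral RNA, did not pass (adjusted p = 0.39). Usp18 and Isg15 passed with all libraries (adjusted p = 0.013 and 0.015) but not without WT replicate 2 (0.051 and 0.059).

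Immediate-early genes, which respond within minutes to serum or handling, were mixed. Of 16 tested 3 were higher and 6 lower, where 23.0% and 22.5% of all genes were, and 1 and 7 with the trend removed, where 16.8% and 17.1% were. Medians were -0.20 and -0.36. Fosl1, an AP-1 factor, stood at 24.7, 31.3 and 28.4 in WT and at 15.4, 11.1 and 14.1 in CTL, a difference of -1.01 ± 0.14 (adjusted p = 0.0018; -1.42 with the trend removed). Klf6 and Dusp1, a phosphatase of MAP kinases, were lower by -0.69 ± 0.09 and -0.47 ± 0.10, and these 3 kept their calls without each library. Egr1 stood at 180, 211 and 199 against 95.3, 121 and 47.6 (-1.25 ± 0.31, adjusted p = 0.017; 0.061 without WT replicate 2). Fos and Jun did not pass (adjusted p = 0.59 and 0.89).

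Proliferation genes were expressed in both sets. Of 20 genes of G1/S and replication 2 were higher and 3 lower, and of 20 of G2/M and mitosis 1 was higher and 5 lower, all near or under the shares of all genes (23.0% and 22.5%). Mki67, the proliferation marker Ki-67, stood at 439, 437 and 380 in WT and at 217, 282 and 158 in CTL, a difference of -0.97 ± 0.20 (adjusted p = 0.0076; -0.72 with the trend removed). Cdc20, an activator of the anaphase-promoting complex, went the other way, from 19, 21.4 and 21.6 to 34.6, 55.5 and 37.3, by 0.97 ± 0.17 (adjusted p = 0.0046; 0.65). Ccne2, a G1/S cyclin, stood at 30.2, 31.5 and 26.9 against 16.1, 16.2 and 11.8 (-0.97 ± 0.13, adjusted p = 0.0018; -0.47). Median differences of the lists were -0.10 and -0.23. Top2a and Cdk1 did not pass (adjusted p = 0.21 and 0.15), and Pcna, the sliding clamp of replication, rose by 0.32 (adjusted p = 0.024), a call lost without any 1 library other than CTL replicate 3 (adjusted p up to 0.079). Cdkn1a, the p53 target that halts the cycle, had 153, 171 and 139 against 148, 117 and 239 and did not pass.

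Among signalling genes, Id3, an inhibitor of helix-loop-helix factors induced by BMP, stood at 53.7, 59.3 and 63.6 in WT and at 134, 188 and 145 in CTL. This difference of 1.38 ± 0.13 (adjusted p = 6.8e-04; 0.99 with the trend removed) was kept without each library. In all, 2 of 15 TGF-beta and BMP genes were higher and 2 lower, or 1 and none with the trend removed, under the 45.5% and 33.9% of all genes called. Grem1, a secreted BMP antagonist, stood at 422, 346 and 394 in WT and at 81.6, 54.0 and 453 in CTL, so CTL replicate 3 was in the WT range and the difference did not pass (adjusted p = 0.11).

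Of 16 Wnt pathway genes 2 were higher and 1 lower, also under the 45.5% of all genes called. The higher were the receptors Fzd1, at 70.7, 73.3 and 75.7 against 106, 121 and 113 (0.62 ± 0.07, adjusted p = 9.6e-04; 0.44), and Fzd2, at 54.9, 70.8 and 83.4 against 139, 128 and 127 (0.92 ± 0.14, adjusted p = 0.0029; 0.69). Both were kept without each library. Sfrp1, a secreted Wnt inhibitor and the most abundant of the list by level per length, had 2557, 2215 and 2095 against 1078, 1367 and 2197 and did not pass (adjusted p = 0.082). Dkk2, another secreted inhibitor, had CTL replicate 3 apart in the same way, at 139, 157 and 243 against 36.1, 48.4 and 141. Its difference of -1.46 ± 0.49 (adjusted p = 0.047) was lost without any 1 of the 3 WT libraries or CTL replicates 1 or 2 (adjusted p up to 0.13), and with the trend removed (0.098).

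Metabolic and stress lists held single genes that passed, with 23.0% of all genes higher and 22.5% lower beside these counts (16.8% and 17.1% with the trend removed). Of 18 ATF4 response genes 5 were higher and none lower, and 3 and none with the trend removed, so the higher counts were near the shares of all genes. Ddit4, an inhibitor of mTORC1, stood at 25.8, 35.6 and 35.6 against 127, 56.1 and 74.4, a difference of 1.31 ± 0.29 (adjusted p = 0.01; 0.91). Of 12 hypoxia and glycolysis genes 3 were higher: Ldha, lactate dehydrogenase, stood at 365, 383 and 452 against 885, 578 and 790, a difference of 0.89 ± 0.17 (adjusted p = 0.0056; 0.72), while for Gapdh and Eno1 at least 0.72 of the transcript recurs in other genes. The hypoxia targets Vegfa, Bnip3 and Pdk1 did not pass. Of 20 cholesterol synthesis genes 3 were higher and 2 lower, and none in either direction with the trend removed.

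Of 13 p53 targets 2 were higher and 2 lower, under the 45.5% of all genes called, as were the inflammatory and retinoid lists. Bbc3, the death promoter Puma, rose from 3.46, 4.27 and 5.66 to 9.76, 9.63 and 11.9, by 1.08 ± 0.17 (adjusted p = 0.0027; 0.49). Of 14 inflammatory genes 2 were higher and 1 lower, and Cxcl12, a stromal chemokine, was the most abundant, at 1677, 1354 and 1691 against 1193, 1522 and 1691. Of 10 retinoid genes 1 was higher, none was lower, and none passed with the trend removed.

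Among 10 imprinted growth genes 1 was higher and 1 lower, where 45.5% of all genes were called. Ndn, necdin, a growth suppressor, stood at 40.6, 39.2 and 43.2 in WT and at 61.4, 85.1 and 83.5 in CTL, a difference of 0.87 ± 0.13 (adjusted p = 0.0024; 1.09 with the trend removed). Peg3, a zinc finger factor, stood at 239, 212 and 205 against 104, 136 and 154, a difference of -0.74 ± 0.14 (adjusted p = 0.0064; -0.52). Both were kept without each library. Xist, the RNA that coats an inactive X chromosome, was expressed in all 6 libraries, at 1427, 1324 and 1293 against 921, 786 and 691, a difference of -0.76 ± 0.12 (adjusted p = 0.0027) that came to -0.31 with the trend removed (0.034). The Y-linked genes Ddx3y, Eif2s3y, Kdm5d and Uty were listed for neither baseline. Dlk1, a marker of preadipocytes, varied within CTL, at 17.9, 86.0 and 76.8, around WT values of 49.0, 47.9 and 50.5.

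**Figure D5:**
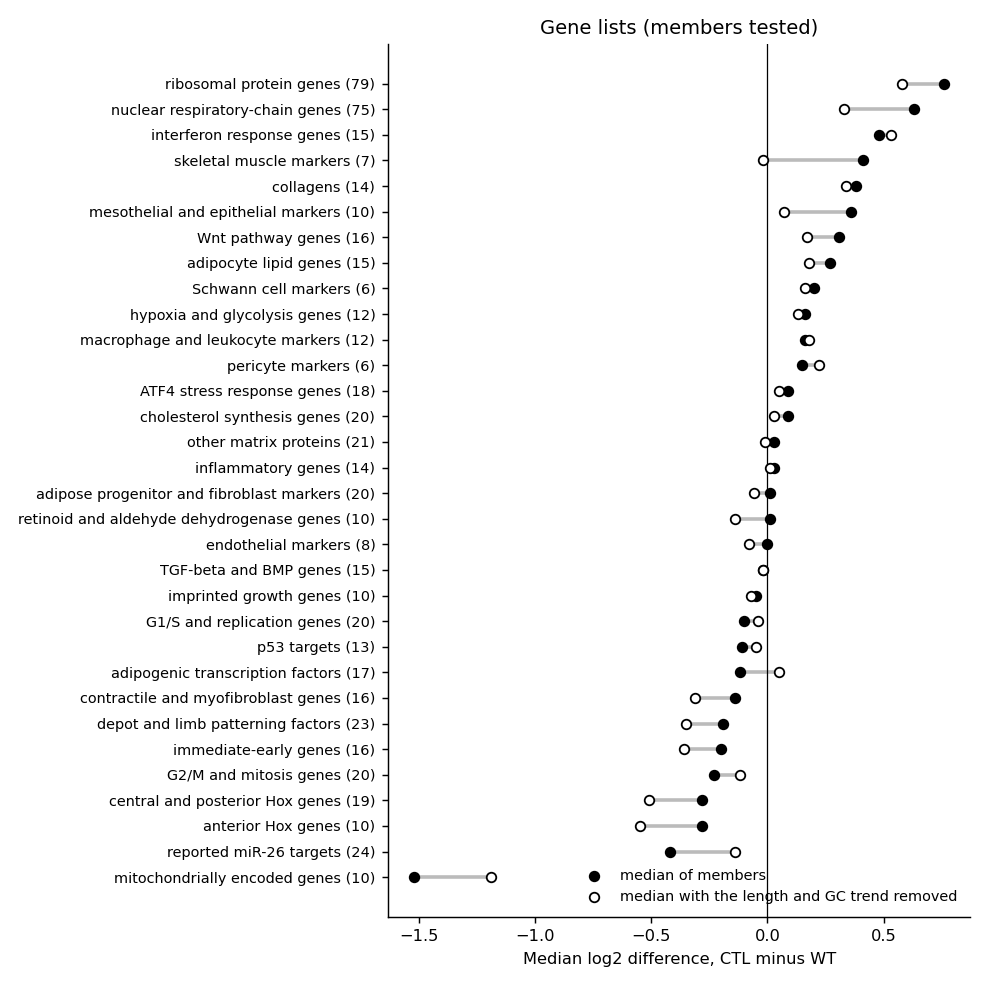
Median log2 difference, CTL minus WT, of the gene lists and of the ribosomal protein and respiratory-chain groups, with the number of members tested in parentheses. The Y-linked and X-inactivation list and the list of miR-26 host genes and Fbxl19 are not drawn. Filled points use the rescaled signal and open points the values with the length and GC trend removed. Most lists lie near 0, mitochondrially encoded genes lie at -1.52 and -1.19, and ribosomal protein genes at 0.76 and 0.58.

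For reported targets of miR-26 the counts depended on the trend with composition. Of 24 reported targets tested 14 were lower and 1 higher in CTL, against 22.5% and 23.0% of all genes, with a median of -0.42, and 9 of the 14 were kept without each library. With the trend removed 7 were lower and 1, Nus1, a subunit of the dolichol-making enzyme, was higher, against 17.1% and 16.8% of all genes, with a median of -0.14; their median transcript GC is 45.5%, against 49.9% over all genes. Tab2, an adaptor of the kinase TAK1, stood at 296, 300 and 276 in WT and at 162, 128 and 134 in CTL, a difference of -1.04 ± 0.10 (adjusted p = 6.8e-04; -0.94 and 0.0014 with the trend removed). Tab3, its relative, stood at 28.4, 30.3 and 27.2 against 16.2, 16.6 and 15.1, a difference of -0.80 ± 0.08 (adjusted p = 6.7e-04; -0.40 and 0.0067). Rb1, the retinoblastoma gene, stood at 42.9, 39.3 and 35.3 against 22, 22.1 and 24.2, a difference of -0.76 ± 0.09 (adjusted p = 0.0012; -0.38 and 0.015).

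In these 3 genes the sets did not overlap, as in 58.4% of all genes. Map3k2, a kinase of the MAP kinase cascade, had a difference of -0.54 (adjusted p = 0.0019), which came to -0.02 with the trend removed (0.79). Ezh2, Cdk6 and Gsk3b passed at first and not with the trend removed, and the first of these was lost without WT replicates 1, 2 or 3 or CTL replicate 1 (adjusted p up to 0.10) and Cdk6 without any 1 library other than CTL replicate 3 (up to 0.094), while Ccnd2, Tet2, Tet3, Adam17 and Stradb passed in neither.

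Fbxl19, which encodes an F-box protein, was the 1 reported target that was higher. It stood at 16.9, 19.1 and 22 in WT and at 27.2, 26.4 and 27.3 in CTL, a difference of 0.47 ± 0.10 (adjusted p = 0.009) that came to 0.12 with the trend removed (0.21); its transcript GC is 60.3%. The sets did not overlap in signal, as in 58.4% of all genes. Of the genes that hold miR-26 in an intron, Ctdsp2 rose by 0.54 ± 0.08 (adjusted p = 0.0029; 0.37 with the trend removed), from 197, 191 and 227 to 284, 313 and 294. Ctdsp1 and Ctdspl did not pass before that step (0.13 and -0.19, adjusted p = 0.17 and 0.065), but 1 of them was called lower in CTL with the trend removed. Mature microRNAs are not measured by these libraries.

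Across all genes, those with an 8mer in the 3′ UTR numbered 597, and 35.5% of them were lower and 10.2% higher in CTL, against 22.5% and 23.0% of all genes, with a median of -0.18. Genes with a 7mer, TACTTGA or ACTTGAA, numbered 1956, with 32.9% lower, 13.7% higher and a median of -0.14. The 9083 genes with a 3′ UTR and no match had 19.6% lower, 26.5% higher and a median of 0.05. With the trend removed 14.7% of the genes with an 8mer were lower and 14.6% higher, against 18% and 17.4% of those with no match, and the medians were 0.00 with an 8mer, 0.03 with a 7mer and 0.00 with none. Genes with an 8mer had a median transcript length of 5008 bases and a GC of 46.1%, against 2962 bases and 51.3% in genes with no match, and a match is counted once however many sites a UTR holds.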

How the data were processed

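Messenger RNA was sequenced as stranded libraries in single reads of 75 bases, per the labels' protocols. The submitters' processing notes name TopHat2 2.0.12, featureCounts 1.4.6, edgeR 3.8.6, StringTie 1.2.2 and GRCm38; the strand setting of counting is not given in the sources used here, so overlapping antisense genes may share reads. The signal deposited by the authors is gene reads scaled by 1 factor per library, in 2 tables normalized apart. Each lists only genes above 0 in all 6 of its libraries, and genes in neither table were not analysed here. Aldoa, Mmp14, Col14a1 and Bmpr1a, for instance, were in neither, and why was not tested. Ranks by level and list counts leave such genes out. Dividing by the value of 1 read gave whole reads for 100.0% of values (tolerance 0.1 reads).

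Libraries were rescaled by median ratios, log2(signal + 1) was fitted with limma 3.58.1 (trend), and p-values were adjusted by Benjamini-Hochberg over all genes. The trend removal used splines with 4 degrees of freedom on transcript length and GC (GENCODE vM21; 99.9% of genes matched). Sequence sharing is the share of 50-base stretches of a transcript found in other genes' transcripts. R 4.3.3 and Python 3.11.15 were used, and the fit was tested on simulated data. The simulation had equal spread in both sets and no lean with GC or length, unlike the libraries here. The 32 lists, 433 of whose 505 genes were tested, and the genes kept were chosen with earlier results of these data known. Named genes were the 15 highest, up to 4 members per list with the smallest p and the 5 with the widest spread per set. They also included the 12 largest differences each way among genes with a mean of at least 5, leaving out unnamed loci and overlapping sets. Others were chosen after their values were seen. Columns of no sample: 0. Some genes are not reported here.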

Additional observations from a re-analysis of the deposited data

How the results depend on the processing

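The 5560 calls were recounted under 19 alternatives. Without 1 library they ranged from 3729 to 5742, higher calls from 1930 to 2894, and lower calls from 1799 to 2848. The lower calls changed by over 1.5 times without WT replicate 2, at 1799. Other scalings, filters, pseudocounts, ranks, thinning to the shallowest library, edgeR (5566) and DESeq2 (5872) on recovered reads gave 5062 to 5872, and removing the length and GC trend gave 4136. Replicate numbers did not pair the libraries: same-numbered WT and CTL libraries had correlations of deviations of 0.04, -0.07 and 0.14, and 3 of 6 libraries correlated best with their own number. A fit with the replicate number as a block called 5101 genes. Of 135 named genes 115 passed. Removing the trend lost 31 calls and added 1. In 1 more, Trp53inp1, a p53 target, the call was lost and the sign changed, from -0.36 (adjusted p = 0.032) to 0.13 (0.40). Percentile ranks lost 21 calls, and leaving out WT replicate 2 lost 34. CTL depth limits what is seen in low genes, and 3 libraries a set limit every comparison: an exact permutation test of 3 against 3 cannot go below 0.1.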
